A study of Homo sapiens with 12 samples.

Results

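The Krüppel-like factors (KLFs) described here are 10 transcription factor genes, KLF2, KLF3, KLF4, KLF5, KLF6, KLF7, KLF9, KLF10, KLF11 and KLF13. They were picked by gene symbol from the KLF family, whose other members are described further on as a separate list. The rule itself uses no measured value, but the members and lists were chosen with earlier results of these data known. All 10 were found among the 62702 genes with counts, and all 10 passed the filter on low counts that left 17677 genes for testing.

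RNA was measured in MCF10AT cells, a human breast epithelial line made from MCF10A by transformation with Ras. The cells of 2 groups carried the long and the intermediate human prolactin receptor (hPRLrL/hPRLrI, here "intact"), and those of the other 2 groups carried the same pair with the I-tail of the intermediate form removed (here "deleted"). All 4 groups spent 24 h in serum-free medium with albumin, and for each receptor pair 1 group was then exposed for 2 h to prolactin (PRL), 250 ng/ml, while the other had none (untreated). Each group holds 3 polyA libraries, numbered here in the order of their titles, with 36120808 to 57324865 counts per library. How the receptors were introduced, and whether the cells were clones, was not given in the sources used here. The treatment protocol calls the PRL samples biological replicates without saying whether they came from separate cultures or days, so the p-values measure the spread between these samples.

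KLFs bind GC-rich and CACCC sequences through zinc fingers at the end of the protein, and the rest of the protein sets whether a member activates or represses. KLF2, KLF4, KLF5, KLF6 and KLF7 act mostly as activators, KLF3 recruits the corepressor CtBP, and KLF9, KLF10, KLF11 and KLF13 recruit the corepressor SIN3A. Several members are early response genes of growth factors, serum, TGF-beta or steroid hormones, and KLF4 and KLF5 are known in breast epithelium for their parts in proliferation and differentiation.

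KLF6 stood higher with PRL than without it in both receptor pairs, and KLF11 stood lower, but neither passed the main test. That test was edgeR's, fitted without a term for the runs of titles described further on. KLF6 was called in 5 of the alternatives tried, with and without that term, and KLF11 in 1, the fit with it. With edgeR's quasi-likelihood test and an adjusted p under 0.05, 0 of 10 members were called for the PRL effect averaged over both receptor pairs, against 0.119% of all genes tested. At an unadjusted p under 0.05 there were 2 members, KLF6 and KLF11, against 3.81% of all genes. DESeq2 and limma-voom each called 1 member, KLF6, against 0.515% and 0.656% of all genes. With a term for the runs of titles, edgeR called 2 members, KLF6 and KLF11, against 1.12% of all genes. The median averaged PRL effect was a log2 fold change of 0.05 over the 10 members, of which 5 were above 0, and -0.02 over all genes, of which 46.1% were above 0. With library size as the only scaling, the median of all genes lay at -0.12 and 4 members were above 0, with KLF2 on the other side of 0.

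KLF6 is a broadly expressed activator that is induced early by serum and other stimuli, and a tumour suppressor in several epithelia. It lies on the minus strand of chromosome 10, from 3775996 to 3785281 in GRCh38 (ENSG00000067082, GENCODE 29). The stretch before its annotated exons is shown because KLF6 had the smallest p of the 10 members. It runs at chr10:3785282-3785459, read 5′ to 3′ on the minus strand from RefSeq promoter windows (GRCh38.p14). The capitals mark the GC box GGGCGG, to which KLF and SP factors bind, and the CCAAT box, here on its reverse strand as ATTGG, which 42.6% and 32.0% of all windows of 250 bases held on either strand.
KLF6: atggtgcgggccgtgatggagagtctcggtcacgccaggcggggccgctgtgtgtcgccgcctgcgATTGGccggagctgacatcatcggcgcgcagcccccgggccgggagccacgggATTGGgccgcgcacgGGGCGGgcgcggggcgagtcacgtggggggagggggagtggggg

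KLF6 levels are given in CPM, a count relative to the total of its library, with TMM, edgeR's default, for scaling between libraries. In intact cells the 3 untreated libraries held 21.4, 16.3 and 19.2 CPM of KLF6, and the 3 PRL libraries held 32.9, 38.2 and 27.6 CPM. In deleted cells the untreated libraries held 23.5, 20.8 and 23.4 CPM, and the PRL libraries held 35.7, 27.5 and 32.0 CPM. Every PRL library was above every untreated library, within each receptor pair and over all 12 libraries. Of all genes tested, 2.61% were higher without overlap in intact and 3.29% in deleted cells, while 0.679% were higher without overlap in both receptor pairs and 0.441% over the 6 PRL against the 6 untreated libraries. The group means of KLF6 were 19.0 ± 2.57 CPM (SD, n = 3) in intact untreated, 32.9 ± 5.26 in intact PRL, 22.6 ± 1.53 in deleted untreated and 31.7 ± 4.09 in deleted PRL cells.

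The averaged PRL effect on KLF6 was a log2 fold change of 0.64 ± 0.13 (SE; 95% interval 0.37 to 0.92), a 1.56-fold higher level, with an adjusted p of 0.112. By p, KLF6 was number 29 of the 17677 genes tested. In intact cells the effect was 0.79 ± 0.18 (adjusted p = 0.643), and in deleted cells it was 0.49 ± 0.18 (adjusted p = 1.0). The difference between the 2 PRL effects, deleted minus intact, was -0.30 ± 0.25 (adjusted p = 1.0), with a 95% interval from -0.84 to 0.24. The call for the averaged effect depended on the processing, and KLF6 was called in 5 alternatives: with DESeq2 (adjusted p = 4.05e-04), limma-voom (adjusted p = 0.0283), no count filter (adjusted p = 0.0385), a term for the runs of titles (adjusted p = 0.00248) and 1 surrogate variable (adjusted p = 0.00186). Over all alternatives its adjusted p ran from 4.05e-04 to 1.0, the latter when 4 libraries with consecutive titles were left out. In bulk RNA a different number of cells that make a transcript and a different amount of it per cell cannot be told apart.

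**Figure D1:**
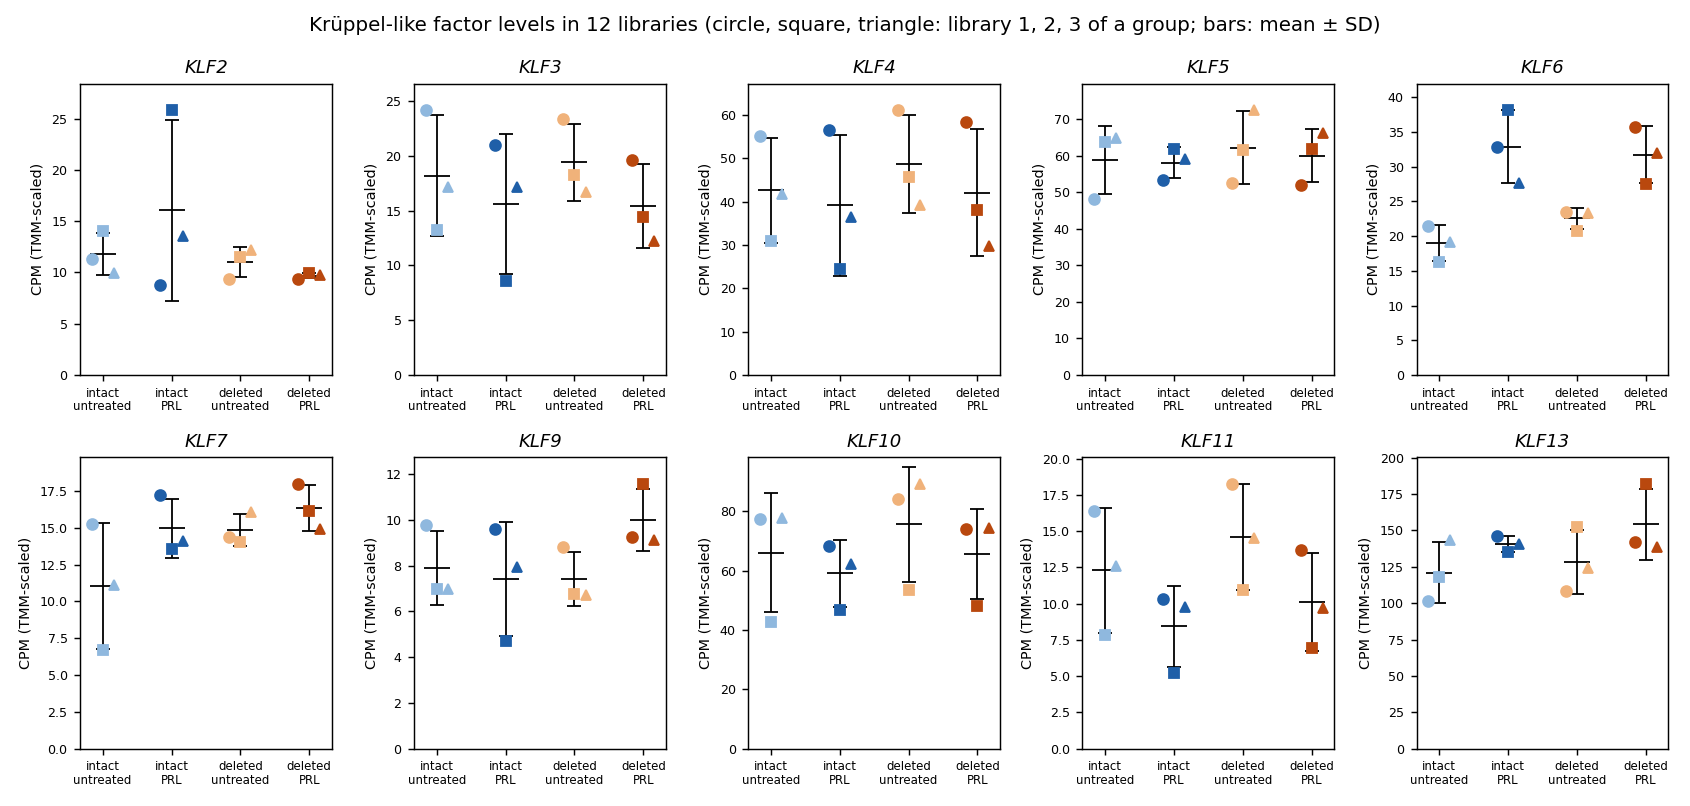
Level of each of the 10 KLF genes (CPM, TMM-scaled; a linear axis from 0 for each gene) in the 4 groups, with 1 symbol per library and the mean ± SD of 3 libraries. For KLF6 the 6 PRL libraries sit at 27.5 to 38.2 CPM and the 6 untreated libraries at 16.3 to 23.5 CPM, while for the other 9 genes the 6 PRL and the 6 untreated libraries overlap.

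For the other activators the treated and untreated libraries overlapped. KLF7, an activator known from neural development and from repression of fat cell differentiation, lies on the minus strand of chromosome 2 (ENSG00000118263, 207074137 to 207167267 in GRCh38). Its levels were 15.3, 6.73 and 11.1 CPM in intact untreated, 17.2, 13.5 and 14.1 CPM in intact PRL, 14.4, 14.03 and 16.1 CPM in deleted untreated and 18.0, 16.1 and 14.9 CPM in deleted PRL libraries. Intact untreated library 2 stood apart at the low end, and treated and untreated libraries overlapped in both receptor pairs. KLF7 had an averaged PRL effect of 0.29 ± 0.18 on the log2 scale (adjusted p = 0.98; 95% interval -0.09 to 0.67).

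KLF7 is shown with stretches from 2 of its RefSeq windows, because it alone among the members with a window held the site bound by STAT factors, through which prolactin receptors signal, and a CArG box, bound by serum response factor. Each window covers the 250 bases before a start site, and both strands were searched. The STAT site TTCNNNGAA is in capitals in the first stretch, chr2:207134191-207134220, and the CArG box in the second, chr2:207167289-207167318, both on the minus strand of GRCh38.p14.
KLF7 window with a STAT site: agatgactgtgTTCCAGGAAggagccaatg
KLF7 window with a CArG box: accacactaaCCATTTAAGGtcaagcaaac

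The STAT site was present in 6.57% and the CArG box in 1.16% of all 35116 windows, and no capitals overlap between them. Each was in 1 of the 13 windows of the members, several of which belong to KLF7. For the STAT site 1 of 13 is near the share of all windows, so it is no trait of KLF7. The window with that site ends before a start at 207134137, which lies inside the gene. A match of letters is a description of the sequence and not a measured binding site.

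KLF5 (ENSG00000102554, chromosome 13, 73054976 to 73077542, plus strand), which drives proliferation of basal epithelial cells, held the steadiest level of the 10 members. It ranged from 48.1 to 72.5 CPM over the 12 libraries, and its averaged PRL effect was a log2 fold change of -0.04 ± 0.13 (95% interval -0.31 to 0.24). The interval leaves room for a change of up to these sizes in either direction. Its 4 group means lay between 58.1 ± 4.28 CPM in intact PRL and 62.2 ± 9.98 CPM in deleted untreated cells (SD, n = 3).

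KLF4 (ENSG00000136826, chromosome 9, 107484852 to 107490482, minus strand), a factor of epithelial differentiation and of reprogramming to pluripotency, differed between libraries of the same group more than between groups. Its levels were 55.2, 30.9 and 41.7 CPM in intact untreated and 56.7, 24.4 and 36.5 CPM in intact PRL libraries. In deleted cells they were 61.2, 45.7 and 39.3 CPM untreated and 58.4, 38.1 and 29.8 CPM with PRL. Library 1 was the highest of its group in all 4 groups, a pattern whose share over all genes was not counted. With PRL the averaged log2 fold change of KLF4 was -0.16 ± 0.23 (95% interval -0.66 to 0.33).

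KLF2 (ENSG00000127528, chromosome 19, 16324817 to 16327874, plus strand) is a factor of quiescence, best known in endothelium and lymphocytes. Its levels were 11.3, 14.01 and 9.96 CPM in intact untreated, 8.72, 25.8 and 13.6 CPM in intact PRL, 9.35, 11.47 and 12.2 CPM in deleted untreated and 9.38, 9.91 and 9.71 CPM in deleted PRL libraries. Intact PRL library 2 was the highest of the 12 and had the fewest detected genes of all libraries, 19073, against up to 25200. The part of that in the KLF2 value was not tested. Within the PRL-treated cells the deletion effect on KLF2 was a log2 fold change of -0.73 ± 0.31 (adjusted p = 1.0), and without intact PRL library 2 it was -0.22 ± 0.24. The difference between the PRL effects on KLF2 went from -0.63 ± 0.44 (adjusted p = 1.0) to -0.09 when that library was left out.

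KLF3 (ENSG00000109787, chromosome 4, 38664196 to 38701042, plus strand) is a repressor that limits fat cell and B cell differentiation and competes with activating KLFs for CACCC sites. Its levels were 24.2, 13.3 and 17.1 CPM in intact untreated, 21.0, 8.61 and 17.2 CPM in intact PRL, 23.4, 18.2 and 16.7 CPM in deleted untreated and 19.6, 14.4 and 12.3 CPM in deleted PRL libraries. The groups overlapped, and intact PRL library 2 was the lowest. For PRL the averaged log2 fold change of KLF3 was -0.28 ± 0.22 (95% interval -0.76 to 0.21). The antisense gene KLF3-AS1 overlaps an exon of it on the other strand and had at most 38 counts in a library, against at least 288 for KLF3. Since the sources used here do not say whether counting used strand, reads from that overlap cannot be assigned to either gene. The same limit holds for KLF11, where an antisense gene with 0 counts in every library overlaps an exon.

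The SIN3A-binding repressors include both members that were first described as early genes of TGF-beta, KLF10 and KLF11. KLF11, which is also known for control of insulin gene transcription, lies on the plus strand of chromosome 2 (ENSG00000172059, 10042849 to 10054836 in GRCh38). Its levels were 16.4, 7.86 and 12.6 CPM in intact untreated and 10.3, 5.20 and 9.80 CPM in intact PRL libraries. In deleted cells they were 18.3, 10.96 and 14.5 CPM untreated and 13.7, 6.97 and 9.67 CPM with PRL. The groups overlapped in both receptor pairs, and library 2 was the lowest of its group in all 4 groups. The averaged PRL effect on KLF11 was a log2 fold change of -0.53 ± 0.24 (95% interval -1.05 to -0.01), with an adjusted p of 0.98. With a term for the runs of titles it was -0.54 ± 0.10 and was called (adjusted p = 0.00966). Without that term it was -0.54 ± 0.34 in intact and -0.53 ± 0.34 in deleted cells, and the difference between them was 0.02 ± 0.48.

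The titles are numbered in 3 runs of 4, each with 1 library of every group, and the labels do not say what a run is. Within the first run KLF11 with PRL minus untreated was -0.67 (log2) in intact and -0.41 in deleted cells. Within the second run it was -0.59 and -0.65, and within the last it was -0.36 and -0.59, so that KLF11 was lower with PRL in all 6 comparisons within a run. For KLF6 the same differences were 0.62 and 0.60 in the first run, 1.23 and 0.40 in the second and 0.52 and 0.45 in the third. KLF6 was thus higher with PRL in all 6, which already follows from its lack of overlap between PRL and untreated libraries. How many of all genes keep 1 direction in all 6 was not counted, so neither pattern has a background.

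KLF11 was also the member whose RefSeq windows held the full cyclic AMP response element TGACGTCA, a palindrome bound by CREB and ATF factors, which 1.65% of all windows hold. It is shown in capitals at chr2:10044034-10044063 on the plus strand of GRCh38.p14.
KLF11: atttccagccaTGACGTCAccccggtcctg

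The GC box GGGCGG was the motif found in most members. Of the 8 members with a window, 7 held a GC box, against 42.6% of all windows, and 2 held the CACCC box CCACCC, against 31.3%. These members have up to 4 windows each, so the shares of members and of windows are not the same measure, and 8 of the 13 member windows held the GC box. The AP-1 site TGANTCA was in 0 of the 13 member windows and in 6.57% of all windows.

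KLF10 (ENSG00000155090, chromosome 8, 102648779 to 102655902, minus strand) is the founding early gene of TGF-beta among the members, and its levels spread from 42.9 to 89.3 CPM. Group means were 66.0 ± 20.1 CPM in intact untreated, 59.1 ± 11.2 in intact PRL, 75.6 ± 19.3 in deleted untreated and 65.5 ± 15.2 in deleted PRL cells (SD, n = 3). KLF10 had an averaged PRL effect of -0.18 ± 0.19 on the log2 scale (95% interval -0.60 to 0.23). This interval comes from the fit without the term for the runs of titles, so it includes the spread between runs. Within the runs, in order, PRL minus untreated (log2) was -0.18, 0.12 and -0.32 in intact cells. In deleted cells it was -0.18, -0.16 and -0.26. As for KLF11, library 2 was the lowest of its group in all 4 groups, so that 2 of 10 members had this pattern, against 7.17% of all genes. Those 4 libraries had 19073 to 23119 detected genes and the other 8 had 21761 to 25200, and the part of this in the KLF10 and KLF11 levels was not tested.

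KLF13 (ENSG00000169926, chromosome 15, 31326855 to 31435665, plus strand) is a repressor and activator with parts in T cells and in heart development. Its levels were 102, 118 and 143 CPM in intact untreated, 146, 135 and 141 CPM in intact PRL, 109, 152 and 124 CPM in deleted untreated and 142, 182 and 139 CPM in deleted PRL libraries. Treated and untreated libraries overlapped in both receptor pairs. KLF13 had an averaged PRL effect of 0.24 ± 0.13 on the log2 scale (adjusted p = 0.98; 95% interval -0.05 to 0.53).

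KLF9 (ENSG00000119138, chromosome 9, 70384597 to 70414624, minus strand) is a glucocorticoid- and thyroid hormone-responsive repressor and the member with the fewest counts, 157 to 444 per library. Its levels were 9.76, 6.98 and 6.96 CPM in intact untreated, 9.59, 4.69 and 7.95 CPM in intact PRL, 8.79, 6.76 and 6.72 CPM in deleted untreated and 9.27, 11.6 and 9.13 CPM in deleted PRL libraries. In deleted cells every PRL library was above every untreated one, as for 3.29% of all genes, and in intact cells they overlapped. The PRL effect on KLF9 was a log2 fold change of 0.43 ± 0.27 in deleted and -0.09 ± 0.27 in intact cells. The difference between these effects was 0.52 ± 0.38 (adjusted p = 1.0; 95% interval -0.29 to 1.33), and it was 0.28 without intact PRL library 2.

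**Figure D2:**
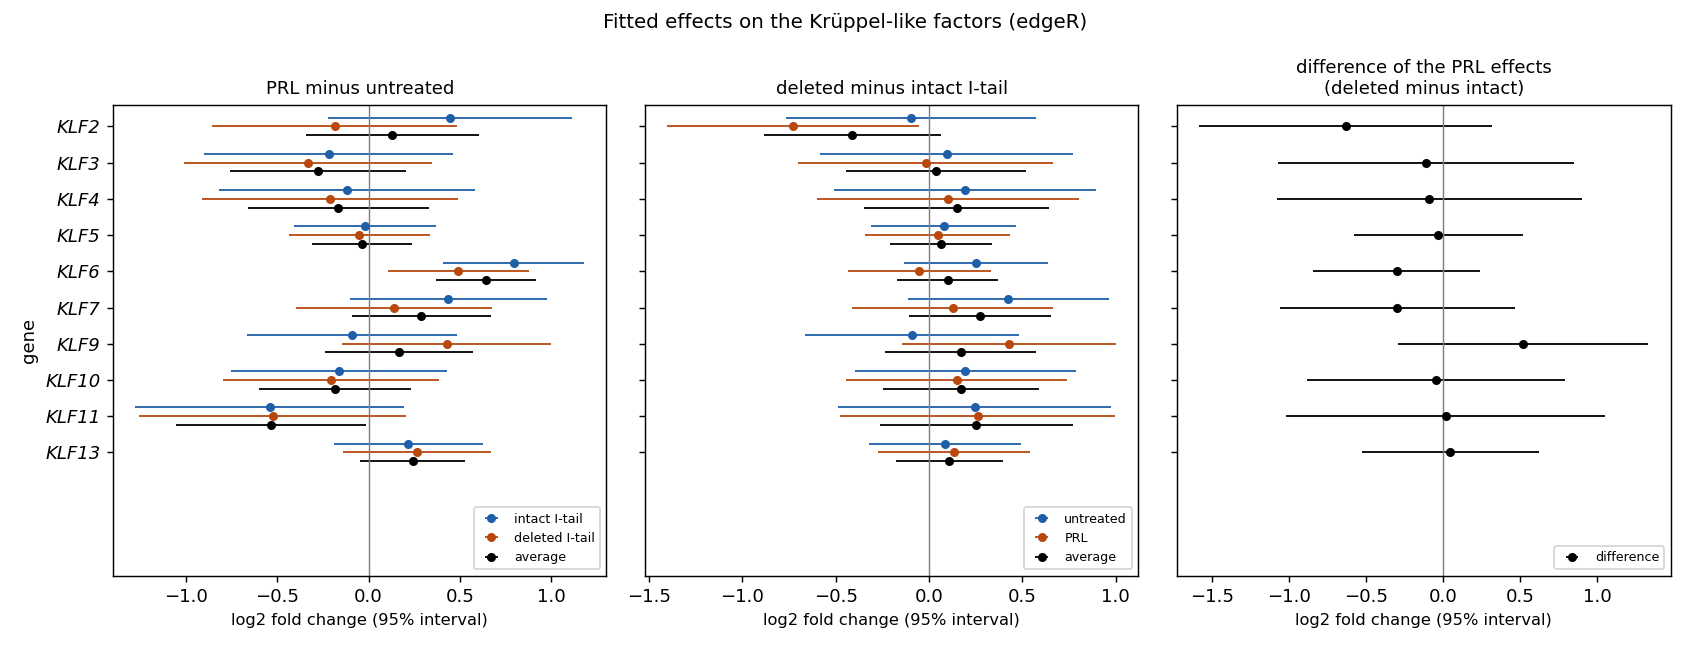
Fitted log2 fold changes of the 10 KLF genes with 95% intervals (edgeR, 12 libraries): PRL minus untreated in each receptor pair and on average, deleted minus intact in each treatment and on average, and the difference of the PRL effects. The interval of the averaged PRL effect lies above 0 for KLF6 (0.37 to 0.92) and just below 0 for KLF11 (-1.05 to -0.01), and every interval of the difference of the PRL effects spans 0.

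By receptor pair, edgeR's quasi-likelihood test called 0 of 10 members for PRL in intact cells, against 0.017% of all genes, and DESeq2 called 1, KLF6, against 0.124%, while limma-voom called 0, against 0.141%. In deleted cells edgeR called 0 of 10 members, against 0.017% of all genes. DESeq2 and limma-voom also called 0, against 0.113% and 0.119%. In each of these comparisons 1 member, KLF6, had an unadjusted p under 0.05, against 2.55% of all genes in intact and 1.79% in deleted cells. For the difference between the PRL effects 0 of 10 members were called, against 0% of all genes, and 0 had an unadjusted p under 0.05, against 0.718%. DESeq2 and limma-voom called 0 there as well.

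Removal of the I-tail left no called difference in any of the 10 members. Averaged over both treatments, 0 of 10 members were called by edgeR's quasi-likelihood test, DESeq2 or limma-voom. Of all genes these tools called 0.00566%, 0.0566% and 0.0453% in turn. With edgeR 0 members had an unadjusted p under 0.05, against 2.28% of all genes. In untreated cells the same tools called 0 of 10 members, against 0.00566% of all genes with edgeR, 0.0226% with DESeq2 and 0.0283% with limma-voom. There 0 members had an unadjusted p under 0.05 with edgeR, against 0.837%. In PRL-treated cells the tools called 0 of 10 members, against 0.00566% with edgeR and 0.0113% with each of DESeq2 and limma-voom. KLF2 alone had an unadjusted p under 0.05 with edgeR, against 1.62% of all genes. The median averaged deletion effect was a log2 fold change of 0.13 over the members and 0.03 over all genes. It was above 0 in 9 of 10 members and in 55.9% of all genes, and the member count was 9 under each of the 4 scalings tried. With limma-voom or 1 surrogate variable it was 7, without each library in turn it was 7 to 9, and without the libraries of the second run it was 5. The averaged deletion effect of KLF3 changed sign in 9 of 26 alternatives, and those of KLF4 and KLF5 also crossed 0 when 1 library was left out (KLF4 without deleted PRL library 1, KLF5 without deleted PRL library 3).

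The averaged deletion effects with the smallest p were those of KLF2 and KLF7. KLF2 stood at a log2 fold change of -0.41 ± 0.22 (adjusted p = 0.991; 95% interval -0.88 to 0.06), the one member below 0, and at -0.17 without intact PRL library 2. KLF7 stood at 0.28 ± 0.18 (adjusted p = 0.991; 95% interval -0.10 to 0.66), at 0.13 without intact untreated library 2 and at 0.43 without intact untreated library 1. For KLF6 the averaged deletion effect was 0.10 ± 0.13 (95% interval -0.17 to 0.37). The intact and deleted groups that give these values also give the PRL effects, so the comparisons share libraries.

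Per kilobase of merged exons, KLF10, KLF5, KLF13 and KLF4 were the most abundant members. Mean levels over the 12 libraries were 16.6 CPM per kb for KLF10, 15.4 for KLF5, 14.5 for KLF13 and 11.8 for KLF4, followed by 6.003 for KLF2 and 4.32 for KLF6. The lowest were KLF3 at 2.73, KLF11 at 2.47, KLF9 at 1.58 and KLF7 at 1.54 CPM per kb. The ranges over the libraries overlapped for every pair of neighbours in this order. KLF10 was above KLF5 in 8 of 12 libraries and KLF9 above KLF7 in 7 of 12, while KLF4 was above KLF2 and KLF6 above KLF3 in 11 of 12.

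KLF10 led in 8 libraries, KLF13 in 2 and KLF5 in 2. Together the top 4 members held 67.0 to 79.6% of the summed KLF level per kb, with the lowest share in intact PRL library 2, where KLF2 was at its highest. The summed level of the 10 members ranged from 63.5 CPM per kb in intact untreated library 2 to 83.5 in deleted untreated library 3. With the longest transcript in place of merged exons, KLF13 came first, ahead of KLF10 and then KLF5, so the order at the top depends on the length used.

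**Figure D3:**
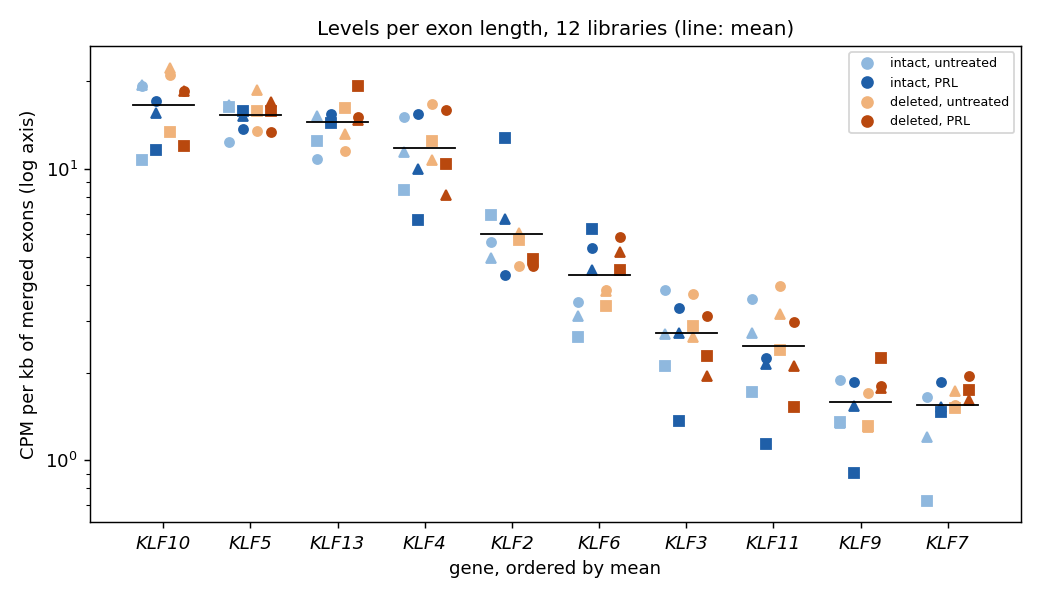
Level of each KLF gene per kb of merged exons (CPM per kb, log axis) in the 12 libraries, coloured by group, with genes in the order of their means. Means run from 16.6 for KLF10 to 1.54 for KLF7, and neighbouring genes overlap in range.

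Spread between libraries differed among the members. The SD of log2 CPM over the 12 libraries was 0.17 for KLF5 and 0.52 for KLF11, with the other members between them. KLF3, KLF4, KLF9 and KLF11 were at their lowest in intact PRL library 2, and KLF2 and KLF6 at their highest there. The share of all genes with an extreme in that library was not counted, so this is no trait of the members. This library also had the lowest TMM factor of the 12, at 0.79, against up to 1.16, and its part in these levels was not tested.

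**Figure D4:**
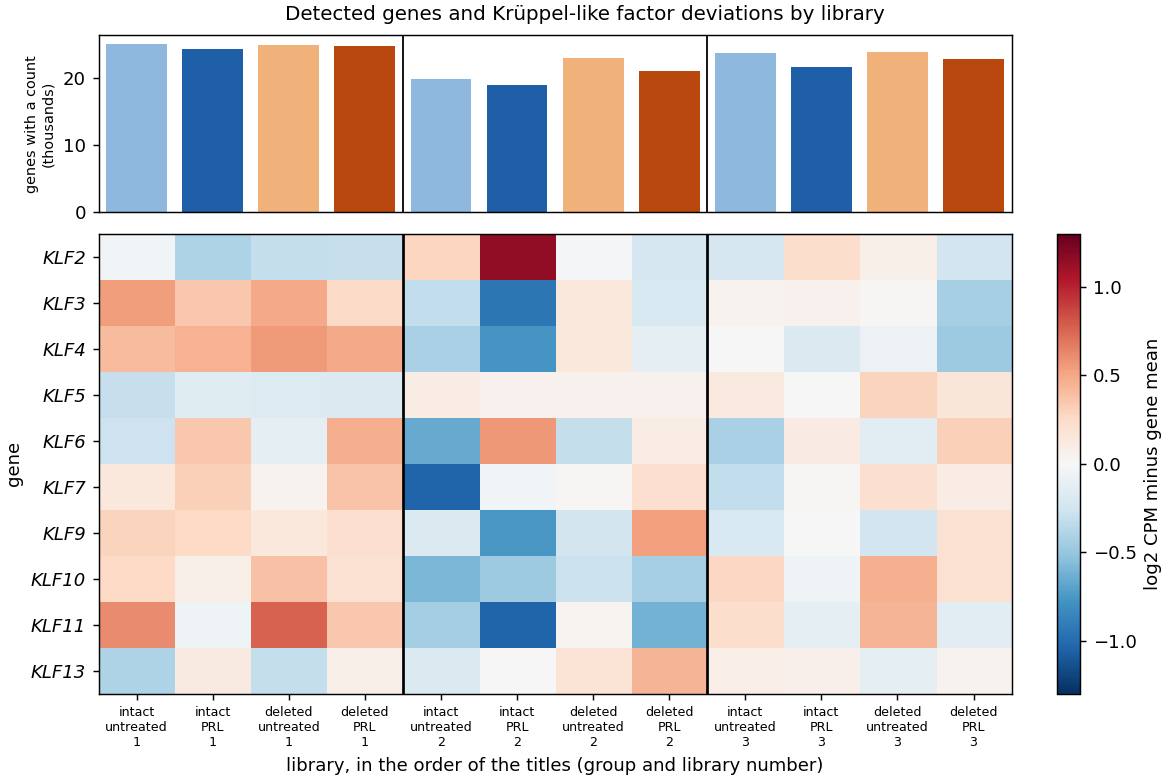
Above, genes with a count in each library (scaled axis from 0, bars coloured by group). Below, the log2 CPM of each KLF gene minus its mean over the 12 libraries (colour), in the order of the titles, with lines between the 3 runs of 4 titles. Intact PRL library 2 has the fewest detected genes (19073), the highest KLF2 and the lowest KLF3, KLF4, KLF9 and KLF11.

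The genes whose pattern over the 12 libraries was most like that of KLF6 were GPRC5A, a retinoic acid-induced receptor-like protein of epithelia, IFFO2, PALM2AKAP2, CDK5R1 and PPIF. Likeness was the root mean square difference of centred log2 CPM over 12 libraries among 9227 genes, and it was 0.16 for GPRC5A and 0.18 for PPIF. Their averaged PRL effects were log2 fold changes of 0.53 for GPRC5A, 0.50 for IFFO2, 0.68 for PALM2AKAP2, 0.50 for CDK5R1 and 0.48 for PPIF, and none of the 5 was called. KLF11, the member with the largest spread, was most like CCNG2, a cyclin of cell cycle arrest, at 0.13, followed by KDM6A, PDE4D, MBNL2 and IRAK4 at 0.17 to 0.18. Their averaged PRL effects ran from -0.50 for PDE4D to -0.31 for IRAK4. All these genes were picked by likeness over the same 12 libraries. PRL effects of the same sign as that of KLF6 or KLF11 therefore follow from the choice and are no separate result.

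Of the 17 other KLF and SP factors, 12 were tested and 0 were called for the averaged PRL effect, against 0.119% of all genes, and 0 had an unadjusted p under 0.05, against 3.81%. DESeq2 and limma-voom also called 0 of the 12, against 0.515% and 0.656% of all genes. So did edgeR with a term for the runs of titles, against 1.12%. The median log2 fold change of the 12 was -0.23, with 3 of 12 above 0, against 46.1% of all genes. KLF16, a further GC-box-binding repressor, had the smallest p of the list at 0.58 ± 0.27 (adjusted p = 0.98). Its group means went from 73.9 CPM in intact untreated to 112 in intact PRL and from 52.5 to 76.8 CPM in deleted cells. Single libraries ran from 43.0 to 170 CPM, so the highest stood well above each of these means. The part of that library in the KLF16 effect was not tested. SP5, a target of WNT signalling, stood at -0.63 ± 0.31 with a mean of 0.879 CPM, and SP6, an epithelial factor of tooth and skin, at -0.45 ± 0.29.

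Of 25 partners and regulators of KLFs (corepressors, acetyltransferases, ubiquitin ligases and upstream factors), 24 were tested, 0 were called and 9 were above 0, with a median of -0.05. Over all genes 0.119% were called and 46.1% were above 0, with a median of -0.02. The TGF-beta effector SMAD3 stood at a log2 fold change of 0.38 ± 0.14, the serum response factor gene SRF at 0.47 ± 0.20, and BTRC, a ubiquitin ligase subunit, at -0.28 ± 0.16. SMAD3 and SRF were the 2 genes of the list with an unadjusted p under 0.05, against 3.81% of all genes. DESeq2 and limma-voom called 0 of the 24, against 0.515% and 0.656% of all genes. With a term for the runs of titles edgeR called 2 of the 24, SMAD3 and SRF, against 1.12%.

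Among 24 genes reported as KLF targets, 0 were called for PRL, against 0.119% of all genes, and 3 had an unadjusted p under 0.05 with a value above 0, against 2.17%. The median log2 fold change was 0.23, with 16 of 24 above 0, against -0.02 and 46.1% for all genes. SMAD7, an inhibitor of TGF-beta signalling, stood at 0.75 ± 0.16 (adjusted p = 0.163), and PDGFA, a growth factor, at 0.48 ± 0.16 (adjusted p = 0.882). DESeq2 called 1 of these targets, SMAD7, against 0.515% of all genes, and limma-voom called 0, against 0.656%. With a term for the runs of titles edgeR called 2 of them, SMAD7 included, against 1.12%. The list of 22 immediate early genes of serum and TGF-beta, which also holds SMAD7 and SRF, had 2 called genes, both higher with PRL, and a median of 0.49 with 18 of 22 above 0, against 0.119% called, -0.02 and 46.1% for all genes. JUN rose with a log2 fold change of 1.77 ± 0.15 (adjusted p = 2.08e-04) and JUNB with 0.94 ± 0.16 (adjusted p = 0.0386), while IER3, an early gene of cell survival, stood at 0.73 ± 0.14 (adjusted p = 0.119). DESeq2 and limma-voom each called 6 genes of that list, 5 higher and 1 lower, against 0.515% and 0.656% of all genes. In that list edgeR with a term for the runs of titles called 9 higher and 1 lower, against 1.12%. The call of JUNB was lost with RLE scaling and when any of 10 of the 12 single libraries was left out, and that of JUN was kept there. KLF6 stood at 0.64 in the same comparison.

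Of 12 glucocorticoid-induced genes, a class to which KLF9 also belongs, 0 were called, against 0.119% of all genes, 1 had an unadjusted p under 0.05 above 0, against 2.17% of all genes, and 3 below 0, against 1.64%. The median was 0.08, with 7 of 12 above 0. ERRFI1, a feedback inhibitor of EGF receptor signalling, stood at a log2 fold change of 0.50 ± 0.15, TSC22D3, the glucocorticoid-induced leucine zipper, at -0.42 ± 0.13, and GLUL, glutamine synthetase, at -0.29 ± 0.12. The adjusted p-values were 0.678, 0.771 and 0.98. DESeq2 called 0 of the 12, against 0.515% of all genes, and limma-voom called 1, ERRFI1, against 0.656%. With a term for the runs of titles edgeR also called 1, ERRFI1, against 1.12%.

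The labelled cell type was checked with markers. All 8 epithelial markers were above 1 CPM, with summed levels of 1842 to 6502 CPM in untreated and 2081 to 8242 CPM in PRL libraries of intact cells, and of 1980 to 8310 and 2250 to 10547 CPM in those of deleted cells. Of 11 markers of other cells, 5 were under 1 CPM in every library, among them PTPRC of leukocytes and CDH5 of endothelium. The endothelial markers PECAM1 and VWF reached 2.76 and 1.08 CPM in their highest libraries, and PLIN1 of adipocytes reached 9.46 CPM. The sum of the 11 was 118 to 161, 171 to 258, 116 to 226 and 151 to 254 CPM in the same order of groups, most of it COL1A1 and PDGFRB, and the part of these sums in the KLF values was not tested.

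**Figure D5:**
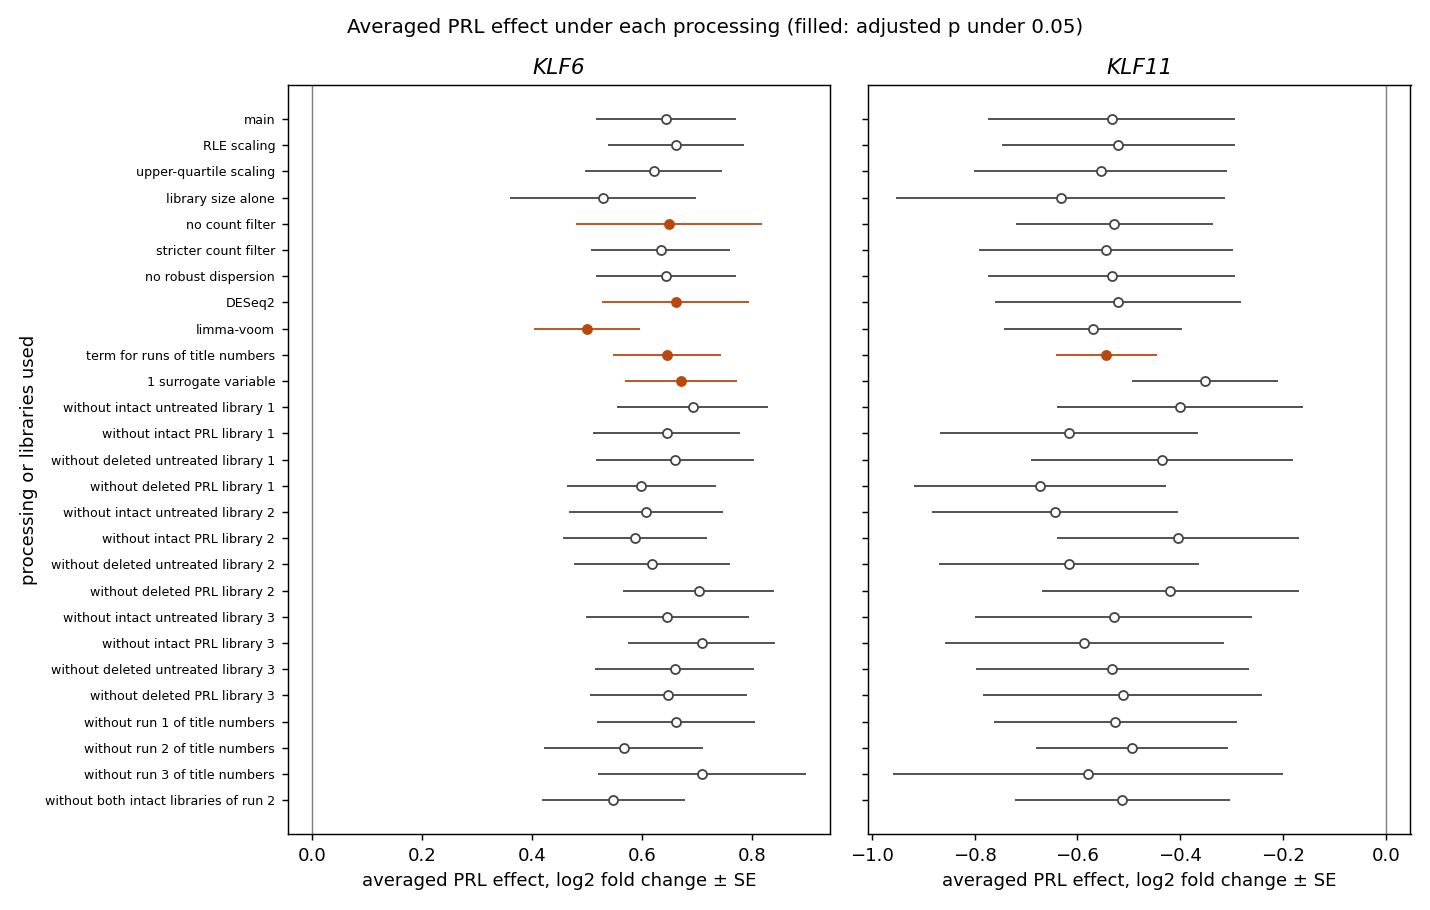
Averaged PRL effect on KLF6 and KLF11 (log2 fold change ± SE) under each processing or choice of libraries, with filled points where the adjusted p was under 0.05. KLF6 lay between 0.50 and 0.71 and was called in 5 alternatives, and KLF11 lay between -0.67 and -0.35 and was called in 1.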

How the data were processed

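The deposited table holds whole-number read counts per Ensembl gene for 12 libraries, and the submitters' processing notes name FastQC, STAR 2.7.9a and Subread's featureCounts, with build GRCh38. Annotation release, strand setting and count filters were not given in the sources used here. Of 62703 entries, 62702 had values and 62624 a symbol.

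Groups came from the genotype and treatment labels. Counts were filtered (filterByExpr), scaled by TMM and fitted with 1 mean per group over all 12 libraries in edgeR 4.0.16 (R 4.3.3; biological coefficient of variation 0.303 on 8 residual degrees of freedom), with the quasi-likelihood F test for 7 contrasts and Benjamini-Hochberg adjustment over all 17677 genes. For the averaged PRL effect, 95% intervals had a median half-width of 0.486 (log2). Log2 CPM used a prior count of 2. DESeq2 1.42.0, limma-voom (limma 3.58.1), sva 3.50.0 and other settings were alternatives. On simulated data the averaged PRL test made 7 false calls in 17228 genes, and it recovered 4-fold changes in 92.42%, 2-fold in 73.13% and 1.5-fold in 11.94% of the genes that had them. The members and lists were chosen with earlier results of these data known. Named were all members, the 3 genes of each list with the smallest p for the averaged PRL effect (1 of these is not reported here) and the 5 genes most like KLF6 and KLF11. Gene positions came from GENCODE 29 and upstream sequences from RefSeq windows, which covered 8 of the 10 members.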

Additional observations from a re-analysis of the deposited data

How the results depend on the processing

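Over 27 alternatives, 1860 values of the members were recomputed. Of these 9 passed the threshold, 140 changed sign without passing it in either setting, and 0 changed sign while passing it. For the averaged PRL effect the count of members called went from 0 to 1 without the count filter, with DESeq2, with limma-voom and with 1 surrogate variable, and to 2 with a term for the runs of titles. In intact cells it went from 0 to 1 with DESeq2, with the run term and with 1 surrogate variable. Without each library in turn it was 0 to 0 in all contrasts.

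KLF6 was the 1 member in each of these counts, with an averaged effect of 0.64 ± 0.10 (adjusted p = 0.00248) with the run term and 0.67 (adjusted p = 0.00186) with the surrogate variable. Without each library in turn it was 0.59 to 0.71, with adjusted p of 0.101 to 0.397. KLF11 was the second with the run term, at -0.54 ± 0.10 (adjusted p = 0.00966), and was -0.67 to -0.40 without each library in turn. All genes called for the averaged effect were 0.119% as reported, 0.366% without the filter, 0.515% with DESeq2, 0.656% with limma-voom, 1.12% with the run term and 0.905% with the surrogate variable.

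The labels give no replicate numbers, so the run term is a block on the 3 runs of consecutive titles, whose meaning the labels do not state. Between libraries of different groups, deviations from the group means correlated at 0.0966 to 0.603 in 18 pairs of the same run and at -0.447 to 0.301 in pairs of different runs, and among libraries of other groups each of the 12 was most like one of its own run. The run term itself had an adjusted p under 0.05 in 5 members (KLF3, KLF4, KLF5, KLF10 and KLF11) and in 42.1% of all genes. The intervals given for KLF3, KLF4, KLF5 and KLF10 come from the fit without it, so they include the spread between runs. Within a run, PRL minus untreated (log2) ran from -0.62 to 0.01 for KLF3 and from -0.40 to 0.04 for KLF4. It ran from -0.13 to 0.15 for KLF5 and from -0.32 to 0.12 for KLF10. None of these members was called for the averaged PRL effect in any alternative. Leaving out the libraries of a run was added after the data were seen. With 3 libraries per group, the averaged PRL test mostly did not recover changes of 1.5-fold on data simulated without runs. A KLF effect of that size can thus be missed by that test. The fit with the run term and the other contrasts were not simulated.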
